A study of Rattus norvegicus with 48 samples.

Results

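The endothelial miRNAs miR-126, miR-221 and miR-222 were followed here through 4 mature strands, rno-miR-126a-3p, rno-miR-126a-5p, rno-miR-221-3p and rno-miR-222-3p, in the serum and ulna bone of a rat model of type 2 diabetes. They were picked by name, as 4 of the 763 rat miRNAs listed for every library, and their read counts were taken from 48 small RNA-seq libraries in 11 groups. Zucker diabetic fatty rats (ZDF fa/fa), which are homozygous for a leptin receptor mutation, were compared with Zucker lean rats (+/+, called WT). Serum was sequenced from 5 placebo-treated, 5 PTH-treated and 4 anti-sclerostin-treated WT rats, and from 5 placebo-treated, 5 PTH-treated, 4 anti-sclerostin-treated and 4 insulin-treated ZDF rats. Ulna bone was sequenced from 4 rats of each genotype under placebo and 4 under PTH. All rats were male, were 11 weeks old when the high-fat, high-carbohydrate chow began, carried a surgical defect in the femur and were treated for 12 weeks, so the WT placebo rats too are operated and chow-fed animals. The doses were 75 µg/kg PTH on 5 days a week, 25 mg/kg anti-sclerostin antibody 2 times a week, and daily insulin that rose from 0.5 to 13 IU. Most bones came from rats that also gave serum, but nothing in the labels says which bone and serum belong to the same rat.

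MiR-126 is made from an intron of EGFL7, a gene of endothelial cells, and is among the miRNAs most typical of endothelium. Its 3p strand represses Spred1 and Pik3r2, inhibitors of VEGF signalling, and both strands of its hairpin are used. MiR-221 and miR-222 are neighbours in a single cluster on the X chromosome and repress Kit and the cell cycle inhibitor p27 in endothelial and smooth muscle cells. None of the 4 strands is restricted to endothelium, and a level in whole bone or serum cannot tell fewer cells of a type from less miRNA per cell.

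The mature sequences and their positions show which strands lie at the same locus and which share a seed. They are from RefSeq (build GRCr8), 5′ to 3′, with the seed, bases 2 to 8, in capitals.
rno-miR-126a-3p: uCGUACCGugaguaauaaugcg
rno-miR-126a-5p: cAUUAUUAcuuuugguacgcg
rno-miR-221-3p: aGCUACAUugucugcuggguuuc
rno-miR-222-3p: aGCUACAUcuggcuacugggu
The strands of miR-126a lie on the plus strand of chromosome 3, at chr3:29813182-29813202 for rno-miR-126a-5p and at chr3:29813219-29813240 for rno-miR-126a-3p, within the bounds of Egfl7. Those of the cluster lie on the plus strand of the X chromosome, at chrX:6022682-6022702 for rno-miR-222-3p and at chrX:6023246-6023268 for rno-miR-221-3p. Rno-miR-221-3p and rno-miR-222-3p have the same first 8 bases and so the same seed, and differ at 10 of the 21 positions they can be compared over. No other name among the 686 with a sequence in the table carries any of the 3 seeds. The 2 strands of miR-126a have different seeds.

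A serum library held 28015 to 205664 miRNA reads (median 86229.5, n = 32) and a bone library 41627 to 1398702 (median 237032.5, n = 16). MiRNAs made up 0.529% to 4.09% of all reads in serum and 1.58% to 21.5% in bone. The bone libraries of PTH-treated WT rats 1 and 2, with 54497 and 41627 miRNA reads, were the shallowest bones and stood apart in several members, so the main values that include them are also given without them. Markers of the labelled tissues were present. The osteoblast and mesenchyme list (rno-miR-199a-3p, rno-miR-199a-5p, rno-miR-214-3p; 3 of 3 with reads in both tissues) summed to 12387 to 45004 CPM in bone and to 226 to 1997 CPM in serum, while the liver list (rno-miR-122-5p, rno-miR-122-3p) summed to 0 to 11.0 CPM in bone and 108 to 3218 CPM in serum. The striated muscle list (rno-miR-1-3p, rno-miR-133a-3p, rno-miR-133b-3p, rno-miR-206-3p) summed to 47869 to 456591 CPM in bone, so the bone libraries hold muscle miRNAs as well.

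All 4 members had reads in all 48 libraries. In serum, rno-miR-126a-5p was the highest, with a median of 0.643% of the miRNA reads (0.201% to 1.46%), followed by rno-miR-126a-3p with 0.295% (0.118% to 0.611%), rno-miR-221-3p with 0.184% (0.0994% to 0.541%) and rno-miR-222-3p with 0.0263% (0.0106% to 0.113%). In bone, rno-miR-126a-3p came first with 1.60% (0.358% to 2.43%), and rno-miR-126a-5p was second with 0.594% (0.358% to 0.922%). Rno-miR-221-3p at 0.159% (0.0168% to 0.264%) and rno-miR-222-3p at 0.0453% (0.00721% to 0.0627%) kept the third and the fourth place. The strands are 21 to 23 bases long, so the shares need no correction for length, but adapters join different miRNAs with different efficiency and a comparison between miRNAs carries that error. Rno-miR-222-3p rested on 7 to 90 reads in a serum and 3 to 687 reads in a bone, and is the least precise of the 4. The partner strands were rare. Rno-miR-221-5p had 0 to 4 reads in serum and 1 to 26 in bone, rno-miR-222-5p had 0 to 1 and 0 to 7, and rno-miR-126b, which is read from the opposite strand of the miR-126 locus, had 0 reads in every library.

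**Figure D1:**
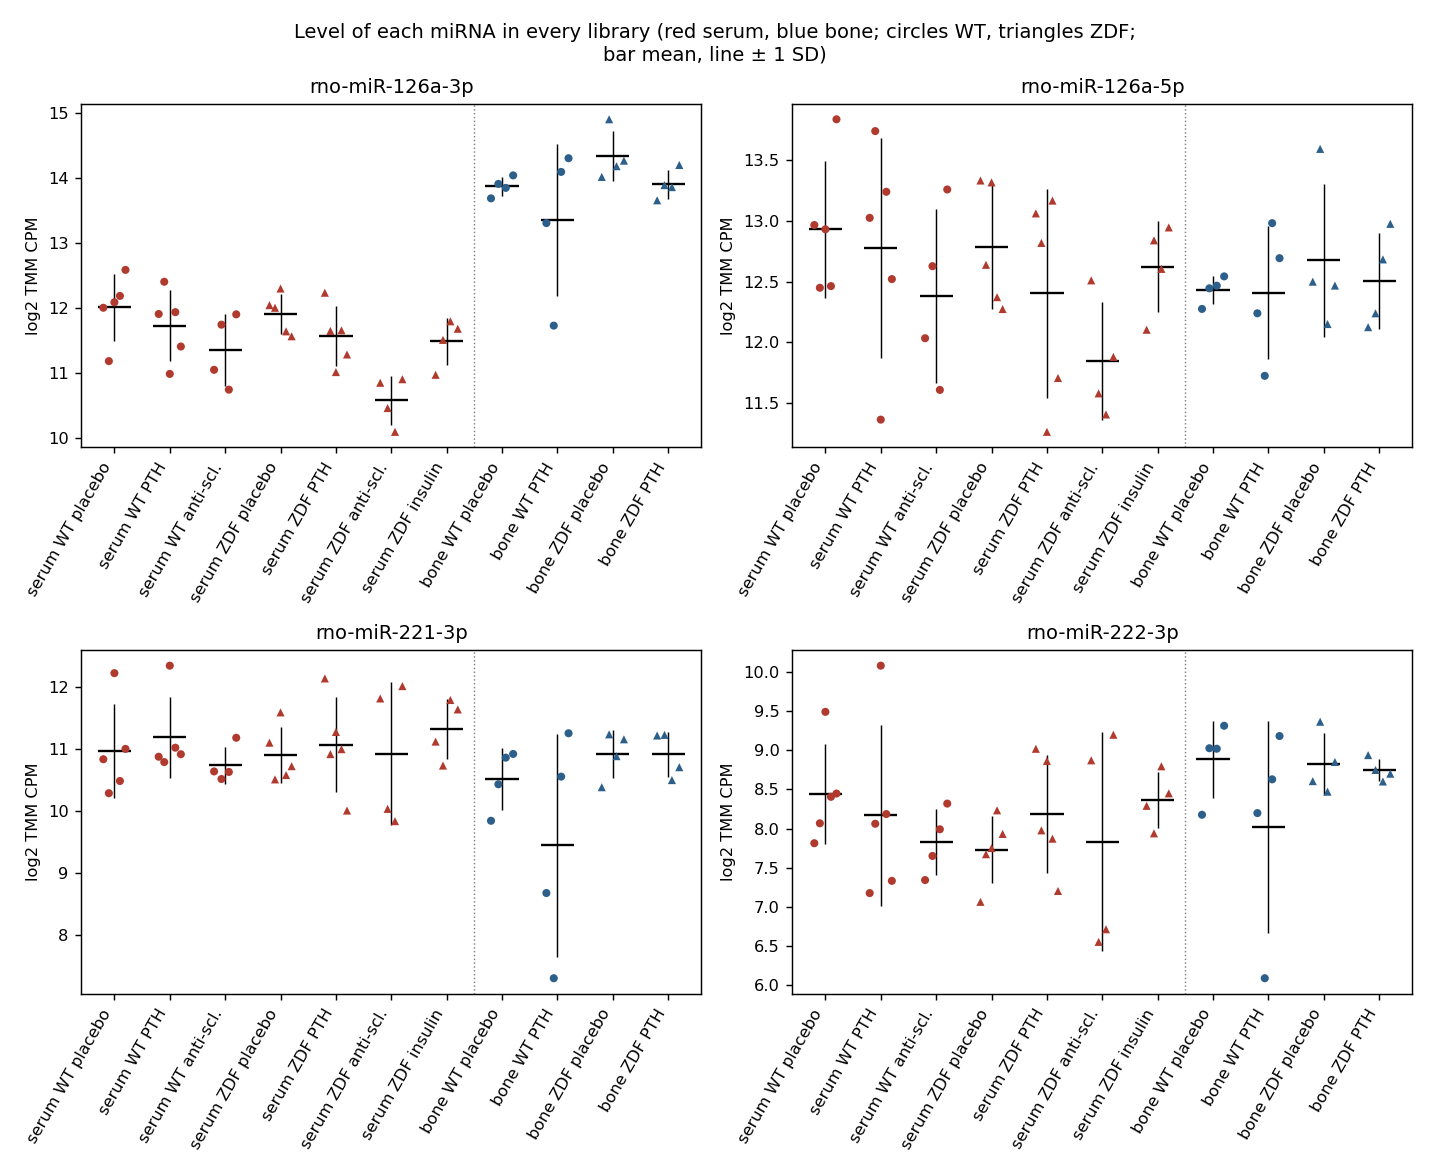
Level of each member as log2 TMM CPM (vertical axis) in the 11 groups (horizontal axis), 1 point per library, with the group mean and ± 1 SD. TMM factors were computed within each tissue, so serum (red) and bone (blue) are on separate scales. The anti-sclerostin-treated ZDF sera are the lowest group of rno-miR-126a-3p, and the bones of PTH-treated WT rats are the most scattered bone group for rno-miR-126a-3p, rno-miR-221-3p and rno-miR-222-3p.

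The balance of reads between the 2 strands of miR-126a differed between the tissues. In all 32 serum libraries rno-miR-126a-5p had more reads than rno-miR-126a-3p, with a 3p to 5p ratio of 0.317 to 0.839 (median 0.476). In bone the ratio was 1.00 to 4.07 (median 2.70, n = 16), so that no bone library lay below any serum library. Each ratio is taken within a library, with 0.5 reads added to both strands, and does not depend on the scaling between libraries. Among placebo-treated WT rats the log2 ratio was −0.93 ± 0.40 in serum (SD, n = 5) and 1.43 ± 0.05 in bone (SD, n = 4), a difference of 2.36. It was 2.54 in placebo-treated ZDF rats, 2.00 in PTH-treated WT rats and 2.23 in PTH-treated ZDF rats. In all 4 comparisons the groups did not overlap, with a two-sided exact permutation p of 0.0159, the smallest that 5 against 4 samples allow, and an adjusted p of 0.0779 over the 54 ratio tests made here. The bone with the ratio of 1.00 was the shallowest one, with 149 reads of each strand, and without the 2 shallow bones the difference in PTH-treated WT rats was 2.41. How often the ratio of other miRNAs separates these tissues was not computed, so the separation is not shown to be particular to miR-126. Serum and bone were also lysed in different ways before RNA extraction, so tissue and extraction cannot be told apart. Within a tissue, the ratio of the miR-126a strands did not pass an adjusted p of 0.2 between any groups (14 comparisons, adjusted p 0.321 to 0.931).

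**Figure D2:**
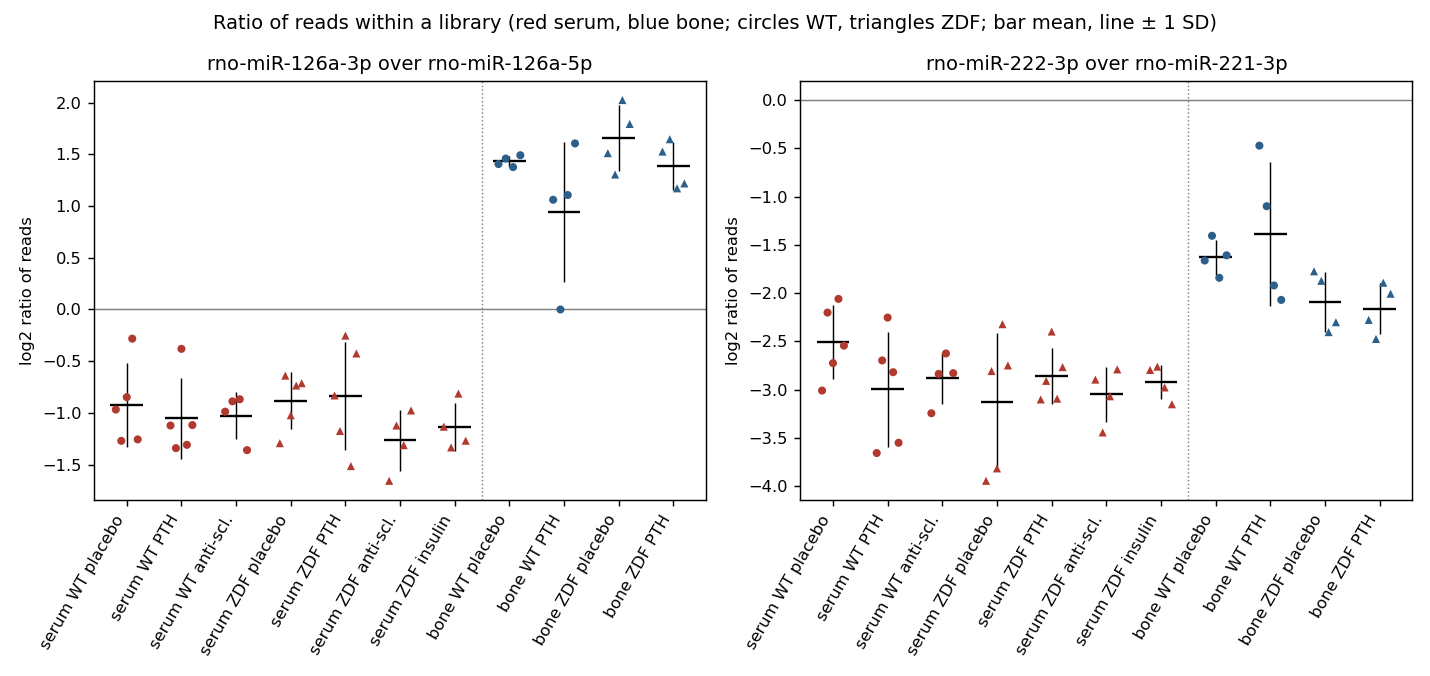
Log2 ratio of reads within a library (vertical axis) for rno-miR-126a-3p over rno-miR-126a-5p (left) and rno-miR-222-3p over rno-miR-221-3p (right), 1 point per library in the 11 groups, with the mean and ± 1 SD. On the left the highest serum ratio is 0.839 and the lowest bone ratio 1.00, and on the right serum and bone overlap.

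The share of rno-miR-126a-3p differed more between the tissues than that of rno-miR-126a-5p. It made up 0.458% ± 0.133 of the miRNA reads in placebo-treated WT sera (SD, n = 5) and 1.51% ± 0.141 in the bones (SD, n = 4), 0.410% ± 0.0963 and 2.12% ± 0.309 in placebo-treated ZDF rats, 0.369% ± 0.166 and 1.36% ± 0.853 in PTH-treated WT rats, and 0.322% ± 0.138 and 1.44% ± 0.175 in PTH-treated ZDF rats. Serum and bone did not overlap except in PTH-treated WT rats, where bone 2 lay at 0.358%. By edgeR, rno-miR-126a-3p was higher in bone in all 4 comparisons, with log2 fold changes of 1.54 (standard error 0.34, FDR 0.000832), 2.42 (0.31, FDR 4.04e-06), 1.55 (0.57, FDR 0.0167) and 2.45 (0.36, FDR 1.50e-05) in the same order. Without the 2 shallow bones the value in PTH-treated WT rats was 2.19 (FDR 0.00165). Rno-miR-126a-5p was 0.878% ± 0.335 in placebo-treated WT sera and 0.560% ± 0.0651 in the bones, a log2 fold change of −0.85 (95% interval −1.62 to −0.09, FDR 0.0456), with groups that did not overlap, and it did not pass FDR < 0.2 in the other 3 comparisons (log2 fold changes −0.80 to 0.11, FDR 0.208 to 0.826).

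Calls between the tissues are common, so they say little about the members by themselves. At FDR < 0.2, edgeR called 80.6% of the miRNAs tested between bone and serum in placebo-treated WT rats, 86.1% in placebo-treated ZDF rats, 79.9% in PTH-treated WT rats and 81.6% in PTH-treated ZDF rats. The shares of the 2 tissues did not overlap for 60.8%, 67.3%, 53.8% and 62.1% of the miRNAs in the same order. Against these, 8 of the 16 tests of members passed FDR < 0.2. Their direction depends on what is held equal. When all reads of a library, rather than its miRNA reads, were taken as the library size, miRNAs as a whole were higher in bone, with a median log2 fold change of all miRNAs tested of 1.87 to 3.10 (−0.07 to 0.42 in the TMM fits), and rno-miR-126a-3p was still further above the serum, at 3.71 to 5.49.

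The cluster members passed in 3 of their 8 tests between the tissues. Rno-miR-221-3p was lower in bone in placebo-treated WT rats (0.240% ± 0.148 in serum, 0.151% ± 0.0377 in bone, log2 fold change −0.85, FDR 0.0820) and in PTH-treated WT rats (0.264% ± 0.162 and 0.122% ± 0.116, −1.39, FDR 0.0664), with overlapping groups in both. The call in placebo-treated WT rats was lost without WT placebo serum 3 (FDR 0.287), and that in PTH-treated WT rats without bone 1 (FDR 0.241) or without bones 1 and 2 (FDR 0.502). Rno-miR-222-3p passed in 1 of the 4 comparisons, being higher in bone in placebo-treated ZDF rats (0.0228% ± 0.00577 and 0.0461% ± 0.00387, log2 fold change 1.08, standard error 0.33, FDR 0.00718), where the groups did not overlap. When all reads were the library size, rno-miR-221-3p turned from lower to higher in bone in all 4 comparisons. The ratio of rno-miR-222-3p to rno-miR-221-3p needs no such scaling. Its median was 0.141 in serum (0.0649 to 0.240, n = 32) and 0.271 in bone (0.180 to 0.721, n = 16). The log2 difference between bone and serum was 0.88 in placebo-treated WT rats and 1.60 in PTH-treated WT rats, where the groups did not overlap (exact permutation p = 0.0159, adjusted p = 0.0779 in both), and 1.04 and 0.69 in placebo- and PTH-treated ZDF rats (exact permutation p = 0.0317, adjusted p = 0.122 in both). The value of 1.60 rested in part on the shallow bones, with 15 reads over 21 and 3 reads over 7, and was 1.00 without them. The share of other ratios that separate the tissues was not computed.

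In serum, no member passed the threshold between the genotypes in the TMM fits. Among placebo-treated rats edgeR called 6.1% of 164 miRNAs, and none of the 4 members was among them. Rno-miR-222-3p had the largest difference, at 225, 268, 719, 339 and 349 CPM in the 5 WT sera and 134, 204, 216, 301 and 244 CPM in the 5 ZDF sera. The ranges overlapped, and the log2 fold change of −0.83 (95% interval −1.63 to −0.03) had an unadjusted edgeR p of 0.0438 but an FDR of 0.384. The log2 fold changes of rno-miR-126a-3p, rno-miR-126a-5p and rno-miR-221-3p were −0.19, −0.22 and −0.21, with 95% intervals that reached from −0.99 to 0.57 over the 3. ZDF and WT sera under PTH and under anti-sclerostin gave no call in edgeR (0% of 158 and 0% of 161 miRNAs), and the FDR of the members was 0.863 to 0.996 under anti-sclerostin and 0.896 to 0.932 under PTH. DESeq2 called no member in any of the 3 genotype comparisons of serum. The placebo comparison depends on the scaling. With all library reads as the library size all 4 members were called lower in ZDF sera, at −0.90 for rno-miR-126a-3p, −0.94 for rno-miR-126a-5p, −0.86 for rno-miR-221-3p and −1.52 for rno-miR-222-3p (FDR 0.0363 to 0.125). That setting called 106 of 164 miRNAs, and the median of all miRNAs was −0.87. With the extraction controls only rno-miR-222-3p of the members was called, at −2.07 (FDR 0.126), where that median was −1.03 and 37 of 164 miRNAs were called.

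Anti-sclerostin treatment went with the lowest serum levels of miR-126 in TMM CPM. In both genotypes, the paper cites an earlier report for the anti-sclerostin groups that it cites for no other group. Treatment and source experiment therefore cannot be told apart in any comparison with anti-sclerostin. The reports cited for PTH and for insulin also differ, and both are cited for placebo. The part of the source experiment in the PTH and insulin comparisons was not tested. In the 5 placebo-treated ZDF sera rno-miR-126a-3p was at 4208, 4092, 5024, 3181 and 3018 CPM, and in the 4 anti-sclerostin-treated ZDF sera at 1838, 1403, 1089 and 1909 CPM. Every treated serum lay below every placebo-treated one. Anti-sclerostin-treated ZDF sera 1 and 4 were the shallowest of all sera, with 28015 and 33591 miRNA reads. They held 51 and 78 reads of rno-miR-126a-3p, and sera 2 and 3 held 239 and 114. The means were 3904 ± 820 CPM under placebo (SD, n = 5) and 1560 ± 385 CPM under the antibody (SD, n = 4), and the edgeR log2 fold change was −1.26 (standard error 0.32, 95% interval −1.96 to −0.56, FDR 0.150, exact permutation p = 0.0159). Only 1.27% of the 158 miRNAs tested passed FDR < 0.2 in this comparison, 2 in number, and the groups did not overlap for 2.53%. The other was rno-miR-143-3p, a miRNA of smooth muscle on the list of vascular miRNAs, at a log2 fold change of −2.53 (FDR 0.150). Rno-miR-126a-5p was at 10328, 6379, 10218, 5302 and 4954 CPM under placebo and at 5837, 3059, 2712 and 3769 CPM under anti-sclerostin, so the groups overlapped, and its log2 fold change of −0.91 (95% interval −1.68 to −0.15) had an FDR of 0.364.

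The call on rno-miR-126a-3p was narrow. Leaving out any of ZDF placebo sera 1, 2, 3 or 5 or anti-sclerostin sera 2, 3 or 4 raised the FDR to between 0.215 and 0.418, whereas without placebo serum 4 or anti-sclerostin serum 1 it was 0.125 and 0.0789, and the log2 fold change stayed between −1.35 and −1.13. DESeq2 gave −1.24 with an FDR of 0.00519, and total miRNA reads without TMM gave −1.25 with an FDR of 0.205. Against the synthetic controls added before extraction, rno-miR-126a-3p stood at 0.916 ± 0.731 reads per 1000 control reads under placebo (SD, n = 5) and 0.478 ± 0.175 under anti-sclerostin (SD, n = 4), a log2 fold change of −0.94 with an FDR of 0.579.

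Of the markers of other cell types tested in the same sera, only rno-miR-143-3p of the smooth muscle list was called. The smooth muscle list (rno-miR-143-3p, rno-miR-145-5p, rno-miR-145-3p; 3 of 3 with reads, none at 0) summed to 11378 to 69330 CPM under placebo and to 4412 to 11241 CPM under anti-sclerostin. The erythrocyte list (rno-miR-451-5p, rno-miR-486, rno-miR-144-3p, rno-miR-144-5p; 4 of 4 with reads) summed to 87066 to 159349 CPM and 26300 to 206021 CPM, and the platelet and myeloid list (rno-miR-223-3p, rno-miR-142-3p, rno-miR-142-5p; 3 of 3 with reads) to 15568 to 28876 CPM and 10088 to 64412 CPM. Rno-miR-150-5p, the lymphocyte marker, was at 2103 to 10805 CPM under placebo and 1117 to 4880 CPM under anti-sclerostin (log2 fold change −1.09, not called), and the osteoblast and mesenchyme list summed to 502 to 1361 CPM and 258 to 954 CPM (median log2 fold change −1.27, 0 of 3 called). The striated muscle, liver and cartilage lists, with 1, 2 and 2 miRNAs tested, had median log2 fold changes of 0.19, 0.48 and 0.23 and no call. With the log2 ratio of rno-miR-451-5p to rno-miR-23a-3p, a measure of hemolysis, as a covariate, the log2 fold change of rno-miR-126a-3p was −1.09 and its FDR 0.309. The part of the other markers in the result was not tested.

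In the TMM fits, insulin and PTH gave no call on rno-miR-126a-3p against placebo in ZDF rats. Under insulin, rno-miR-126a-3p was at 2001, 2904, 3542 and 3270 CPM, overlapping with placebo (log2 fold change −0.49, 95% interval −1.06 to 0.07, FDR 0.260), although 26.5% of 151 miRNAs were called in that comparison. None of the 4 members was called there in the TMM fit, and rno-miR-222-3p had the largest change among them, at 0.55 (95% interval −0.17 to 1.27, FDR 0.307). With total miRNA reads without TMM, rno-miR-126a-3p was called lower under insulin, at −0.79 (FDR 0.0944), where 59 of 151 miRNAs were called. Under PTH no miRNA was called in the TMM fit (0% of 154), and the members had log2 fold changes of −0.32 to 0.51 with an FDR of 0.993 each. With extraction controls as library size, 88 of 154 miRNAs were called under PTH, among them rno-miR-221-3p and rno-miR-222-3p. Set against insulin, anti-sclerostin-treated sera were lower in rno-miR-126a-3p, by −0.80 on the log2 scale (95% interval −1.55 to −0.05, FDR 0.170, exact permutation p = 0.0286, the smallest that 4 against 4 allow). In that comparison 29.1% of 141 miRNAs were called and 12.8% did not overlap between the groups. The erythrocyte list summed to 233362 to 381326 CPM under insulin, above all anti-sclerostin-treated sera, and with the hemolysis ratio as a covariate the log2 fold change was −0.05 (FDR 0.976). The log2 hemolysis ratio was 3.18 to 3.79 under insulin and −0.93 to 1.60 under anti-sclerostin, without overlap. That fit can hardly separate the groups from the ratio, and the standard error rose from 0.34 to 0.89. Leaving out any insulin serum, or anti-sclerostin serum 2 or 3, also ended the call (FDR 0.210 to 0.365). Set against PTH, the log2 fold change of rno-miR-126a-3p was −0.96 (95% interval −1.75 to −0.17) with an FDR of 0.436, and 0.613% of 163 miRNAs were called. The ratio of rno-miR-126a-3p to rno-miR-221-3p, taken within a serum, differed from placebo by −1.35 on the log2 scale under anti-sclerostin, with no overlap (exact permutation p = 0.0159, adjusted p = 0.0779), and by −0.84 under insulin (exact permutation p = 0.0317, adjusted p = 0.122). The share of other ratios that separate these sera was not computed. These comparisons share the anti-sclerostin-treated or the placebo-treated sera and are not independent.

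In WT rats no miRNA was called in edgeR under anti-sclerostin or PTH (0% of 171 and 0% of 170). Rno-miR-126a-3p was at 4092, 2315, 4339, 4644 and 6130 CPM in placebo-treated WT sera and at 2110, 3416, 1708 and 3815 CPM under anti-sclerostin, a log2 fold change of −0.72 (95% interval −1.52 to 0.08, FDR 0.517). The test of the difference between the genotypes in the response to anti-sclerostin gave a log2 difference of −0.54 for rno-miR-126a-3p (95% interval −1.53 to 0.46, FDR 0.822), so a difference in response between ZDF and WT rats was not detectable with these samples. The largest such difference among the members was 1.25 for rno-miR-222-3p (95% interval −0.22 to 2.71, FDR 0.822). None of 189 miRNAs passed in that interaction (0%), none of 182 in the one of genotype and PTH in serum (0%) and none of 243 in the one of genotype and PTH in bone (0%). Over the 10 comparisons within serum, the members were called in 2 of 40 tests, both of rno-miR-126a-3p, and 5 of the 40 had an unadjusted edgeR p below 0.05. Over all miRNAs, 94 of the 1591 tests in these comparisons (5.91%) were called and 166 (10.4%) had such a p, so the share of calls among the members is near that of all miRNAs.

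**Figure D3:**
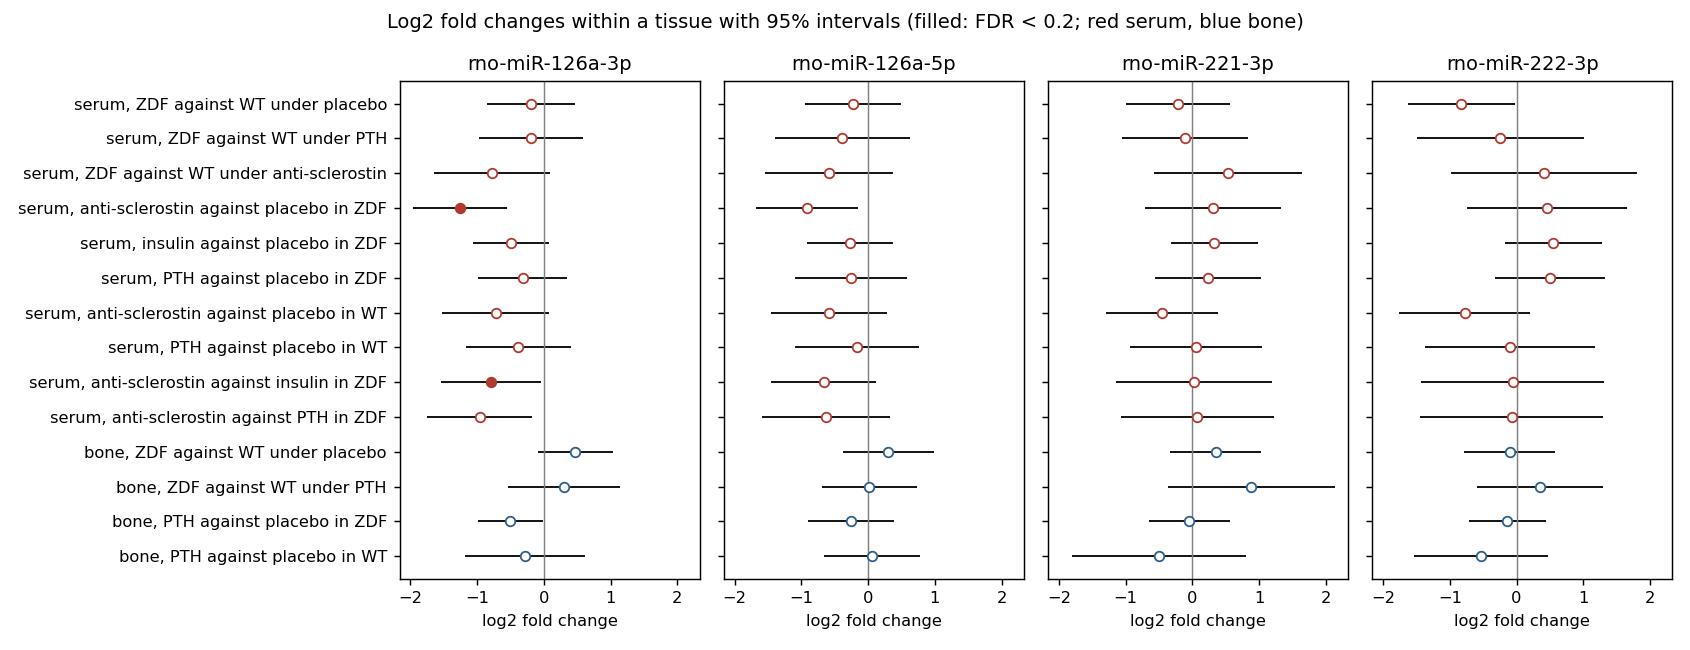
Log2 fold changes of the 4 members (horizontal axis) in the 14 comparisons within a tissue (rows), with 95% intervals. Filled points passed FDR < 0.2, which only rno-miR-126a-3p did, in anti-sclerostin-treated against placebo-treated ZDF sera (−1.26) and against insulin-treated ZDF sera (−0.80).

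Ordered by their mean, the 7 serum groups ran for rno-miR-126a-3p from WT placebo (4304 ± 1365 CPM, SD, n = 5) through ZDF placebo (3904 ± 820), WT PTH (3572 ± 1292), ZDF PTH (3153 ± 1046), ZDF insulin (2929 ± 672) and WT anti-sclerostin (2762 ± 1012) to ZDF anti-sclerostin (1560 ± 385). Neighbours in this order differed by less than the larger of their SDs, except the last pair, whose ranges still overlapped. For rno-miR-126a-5p the order began with WT placebo (8344 ± 3710 CPM) and ended with the same 2 groups, WT anti-sclerostin (5864 ± 2951) and ZDF anti-sclerostin (3844 ± 1399), and all neighbours lay within their spread. The order depends on the scaling. By mean share of the miRNA reads, ZDF insulin lay below WT anti-sclerostin for rno-miR-126a-3p (0.238% and 0.292%) and rno-miR-126a-5p (0.532% and 0.627%). ZDF anti-sclerostin was still the lowest (0.173% and 0.419% for the 3p and 5p strands). The serum means of rno-miR-221-3p lay between 1744 ± 392 CPM (WT anti-sclerostin) and 2665 ± 848 (ZDF insulin), and those of rno-miR-222-3p between 220 ± 60.9 (ZDF placebo) and 389 ± 393 (WT PTH), with all neighbours within their spread.

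In bone, no member was called between genotypes or treatments. Rno-miR-126a-3p was at 13151, 15346, 14709 and 16802 CPM in the bones of placebo-treated WT rats and at 16530, 30580, 18533 and 19665 CPM in those of placebo-treated ZDF rats. The ranges overlapped by a single pair of bones, and the log2 fold change of 0.47 (95% interval −0.09 to 1.04) had an FDR of 0.367, where 2.55% of 235 miRNAs were called. In the bones of PTH-treated ZDF rats rno-miR-126a-3p was at 12880, 15147, 14828 and 18778 CPM, a log2 fold change against placebo of −0.50 (95% interval −0.99 to −0.02, FDR 0.678), and 0% of 215 miRNAs were called. PTH-treated ZDF and WT bones (3.27% of 214 called) and PTH- and placebo-treated WT bones (5.41% of 222 called) had no member past the threshold, at an FDR of 0.459 to 0.990 and 0.581 to 0.951. DESeq2 called no member in these 4 comparisons either. The serum log2 fold change of rno-miR-126a-3p between ZDF and WT placebo rats was −0.19 and that in bone 0.47, and whether these differ was not tested.

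The bones of PTH-treated WT rats were uneven. Rno-miR-221-3p was at 411, 159, 1507 and 2444 CPM there, and rno-miR-222-3p at 294, 68.1, 396 and 581 CPM, from 7 and 3 reads in bone 2. Rno-miR-126a-3p was at 10102, 3382, 17441 and 20182 CPM. Bones 1 and 2 were the lowest in all 3, and they had the fewest reads. Without them, the log2 fold change of rno-miR-221-3p between PTH- and placebo-treated WT bones went from −0.50 to 0.15, and that of rno-miR-126a-3p from −0.28 to 0.10, with no call in either case. Between ZDF and WT bones under PTH the log2 fold change of rno-miR-126a-3p went from 0.30 to −0.23, that of rno-miR-221-3p from 0.88 to 0.07, that of rno-miR-126a-5p from 0.02 to −0.24 and that of rno-miR-222-3p from 0.35 to −0.11, again with no call. Over the 16 bones the levels of the members correlated with the log2 number of miRNA reads at a Pearson r of 0.67 to 0.76, and over the 32 sera at −0.02 and 0.07 for the miR-126a strands and −0.36 and −0.38 for rno-miR-221-3p and rno-miR-222-3p. These correlations are given as a description. The part of depth in the bone levels was not tested.

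Members of 1 locus varied together among the sera. Over the 32 sera, rno-miR-126a-3p and rno-miR-126a-5p had a Pearson r of 0.86 (Spearman rho 0.84) and rno-miR-221-3p and rno-miR-222-3p an r of 0.81 (rho 0.70), with a permutation p of 1e-05 in each, the smallest that the permutations can give, and an adjusted p of 6e-05 over the 12 correlations. Without the 2 sera farthest from the median, r was 0.84 and 0.74, and for the deviations from the group means it was 0.86 and 0.83. The 4 pairs across loci had an r of 0.00 to 0.24 (adjusted permutation p 0.249 to 0.992), −0.15 to 0.42 without the 2 farthest sera and −0.09 to 0.32 for the deviations (adjusted permutation p 0.0993 to 0.630). The hemolysis ratio of the 32 sera had an r of 0.54 with rno-miR-221-3p and 0.51 with rno-miR-222-3p. Its r was 0.35 with rno-miR-126a-3p and 0.32 with rno-miR-126a-5p. The part of hemolysis in the correlations between members was not tested. In bone (n = 16) r was 0.76 for the strands of miR-126a (rho 0.71, adjusted permutation p 0.00412) and 0.90 for the cluster (rho 0.75, adjusted permutation p 0.00012), and across loci it was 0.52 to 0.90. The correlations across loci were lower without the 2 shallow bones. Without the 2 bones farthest from the median, r was 0.52 for the strands of miR-126a and 0.67 for the cluster. Without the 2 shallow bones (n = 14) r was 0.13 to 0.48 across loci (adjusted permutation p 0.190 to 0.713), 0.78 for miR-126a and 0.67 for the cluster. For the deviations from the group means, rno-miR-126a-3p and rno-miR-222-3p had an r of 0.65 in these 14 bones (adjusted permutation p 0.0310), and without the 2 bones farthest from the median rno-miR-126a-3p and rno-miR-221-3p had an r of 0.70. The 2 strands of miR-126a share a precursor and all points of a tissue share their scaling, and the adjusted p-values treat the groups as 1 set.

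**Figure D4:**
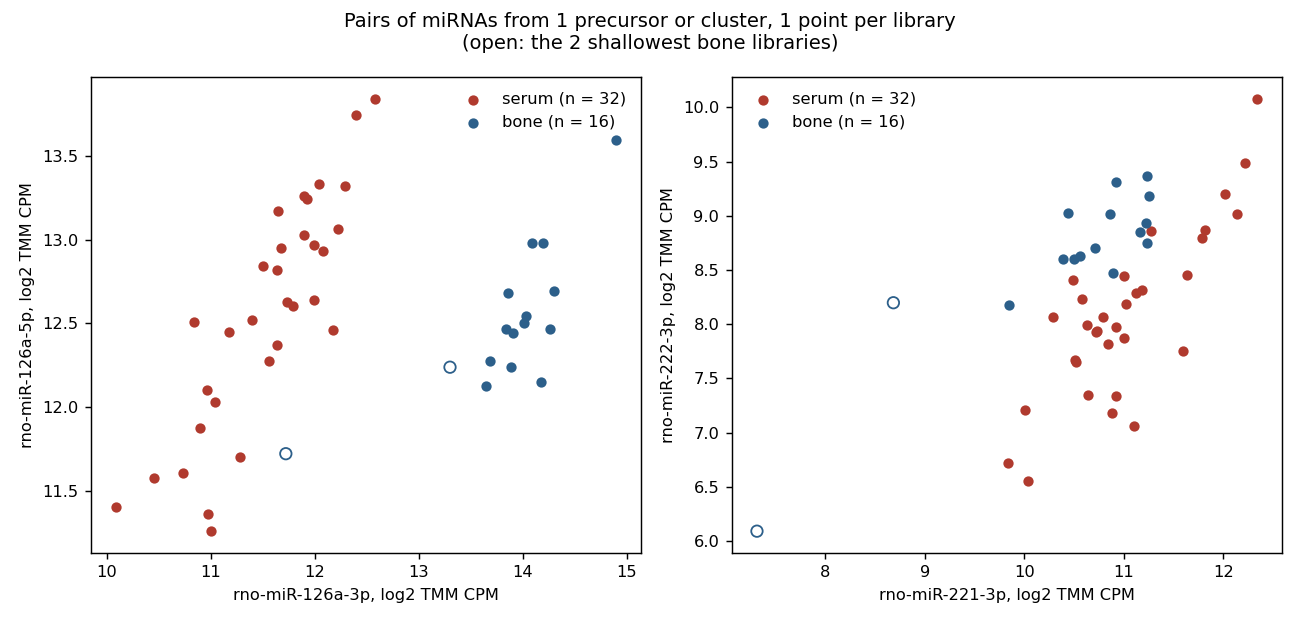
Rno-miR-126a-5p against rno-miR-126a-3p (left) and rno-miR-222-3p against rno-miR-221-3p (right), log2 TMM CPM on both axes, 1 point per library (32 serum, 16 bone). The open circles are the 2 shallowest bone libraries, which are the 2 lowest bones in rno-miR-221-3p. Serum and bone form separate bands on the left.

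The miRNAs most alike to each member, by Pearson r over the libraries of a tissue among those with a mean of at least 10 reads, differed between the loci in serum. Rno-miR-126a-3p was most like rno-miR-497-5p (r = 0.60), rno-miR-143-3p (0.58) and rno-miR-199a-5p (0.58), and rno-miR-126a-5p most like rno-miR-145-5p (0.63), rno-miR-497-5p (0.51) and rno-miR-511-3p (0.50). Rno-miR-143-3p and rno-miR-145-5p are miRNAs of smooth muscle, and rno-miR-199a-5p is on the osteoblast and mesenchyme list. For the deviations from the group means, the r with rno-miR-126a-3p was 0.47, 0.37 and 0.37 in the order given. With rno-miR-126a-5p it was 0.69, 0.41 and 0.67. Rno-miR-221-3p was most like rno-miR-26a-5p (0.83), rno-miR-27b-3p (0.83) and rno-miR-30a-3p (0.79), and rno-miR-222-3p most like rno-miR-27b-3p (0.79), rno-miR-100-5p (0.75) and rno-miR-30a-5p (0.74). The median r over the 158 miRNAs was −0.07 to −0.03. In bone the highest r was 0.91 for rno-miR-126a-3p (rno-miR-338-5p), 0.80 for rno-miR-126a-5p (rno-miR-27b-3p), 0.93 for rno-miR-221-3p and 0.97 for rno-miR-222-3p (both rno-miR-25-5p). The next were rno-miR-155-5p and rno-miR-224-5p (both 0.90) for rno-miR-126a-3p, and rno-miR-128-3p (0.76) and rno-miR-15a-5p (0.72) for rno-miR-126a-5p. For rno-miR-221-3p they were rno-miR-224-5p (0.93) and rno-miR-652-3p (0.92), and for rno-miR-222-3p rno-miR-361-3p (0.96) and rno-miR-505-3p (0.95), against a median r of 0.28 to 0.32 over 250 miRNAs. Without the 2 shallow bones the r of these 3 miRNAs was 0.39 to 0.55 for rno-miR-126a-3p, 0.59 to 0.73 for rno-miR-126a-5p, 0.45 to 0.85 for rno-miR-221-3p and 0.79 to 0.81 for rno-miR-222-3p, and the median r was 0.05 to 0.13.

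The members were set beside 22 other miRNAs with known roles in vessels. In the ZDF sera under anti-sclerostin, 17 of the 22 were tested against placebo, of which rno-miR-143-3p fell and none rose, and the median log2 fold change of the list was 0.24, against 0.12 over all miRNAs tested. Rno-miR-143-3p was also lower under anti-sclerostin than under insulin (log2 fold change −1.51, FDR 0.170) and than under PTH (−2.73, FDR 0.134). Against insulin, rno-miR-24-3p (1.38), rno-miR-130a-3p (1.20) and rno-miR-132-3p (1.18) were higher under anti-sclerostin. Under insulin in ZDF rats rno-miR-17-5p and rno-miR-18a-5p, both of the miR-17 cluster, rose (log2 fold changes 0.67 and 0.93), and rno-miR-10a-5p fell by 1.26. In the same comparison 4 of the 4 erythrocyte miRNAs were called higher (rno-miR-451-5p by 2.33), and the hemolysis log2 ratio was 3.18 to 3.79 under insulin and −0.49 to 1.41 under placebo. With the hemolysis covariate no miRNA was called in this comparison. As the ratio did not overlap between the groups, that fit can hardly separate the treatment from the ratio. Between ZDF and WT placebo sera 1 of 19 tested passed, rno-miR-145-5p, which was higher in ZDF rats (1.07, FDR 0.110). No miRNA of the list passed in the other serum comparisons or between the bones. Between bone and serum, 5 to 6 of the 19 or 20 tested were higher in bone and 11 to 12 lower, so that 16 or 17 were called, a share close to that of all miRNAs given above. The directions are those of the TMM fits, and with all library reads as the library size the median of all miRNAs lay 1.87 to 3.10 above 0. The list median was −1.21 to −0.79 against −0.07 to 0.42 over all miRNAs. In placebo-treated ZDF rats those higher in bone were rno-miR-10b-5p, rno-miR-23b-3p, rno-miR-27b-3p, rno-miR-143-3p and rno-miR-322-5p, and all 6 of the listed miR-17 cluster members were lower, with log2 fold changes of −4.11 (rno-miR-92a-3p) to −2.07 (rno-miR-19a-3p).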

How the data were processed

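The authors trimmed adapters with cutadapt, mapped reads to the rat genome and to rat miRNAs of miRBase (bowtie, miRDeep2), and deposited raw read counts per miRNA for each library, with RPM values scaled to library reads. The counts were tested as deposited. The deposited RPM values served only to compute library totals. Added synthetic controls were left out of the miRNA counts.

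Groups were taken from the labels, where nothing pairs rats across groups, and p-values measure the spread between rats. They do not cover a difference between the source experiments of the groups. Groups were compared in pairs with edgeR 4.0.16 in R 4.3.3 (glmQLFit and glmQLFTest, legacy = TRUE, robust = FALSE) after filterByExpr and TMM, with a Benjamini-Hochberg FDR over all miRNAs kept and a call at FDR < 0.2, the threshold of the study. The study's independent filtering was replaced by filterByExpr, because it can leave a member without an FDR, and was kept as an alternative. In an earlier analysis of these data, independent filtering of all miRNAs of at least 1 read gave calls in most simulations without any change. Differences in response were tested by an interaction term over 4 groups. Standard errors are the log2 fold change divided by the square root of F. Levels are CPM with TMM factors computed within a tissue. Exact permutation tests (scipy 1.17.1, two-sided) used log2(CPM + 1) within a tissue and log2 ratios of reads with a pseudocount of 0.5, and correlations used 100000 permutations of log2(CPM + 1).

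The 4 members, the lists and the rule for named miRNAs (members, the 3 miRNAs most alike to each in each tissue, partner strands, and miRNAs of the vascular list past FDR < 0.2) were chosen with earlier results of these data known. Alternatives were RLE, miRNA totals, all library reads or extraction controls as library size, all groups in one fit, DESeq2 1.42.0, other filters, legacy = FALSE, robust = TRUE, FDR < 0.05, a hemolysis covariate and each replicate left out. Leaving out the 2 shallowest bones was chosen after seeing the data. The scripts were tested on simulated data. The 82 pairs of libraries of the same group all differed by more than sampling noise (chi-squared per degree of freedom at least 12.7). Intervals of fold changes cover the spread between rats, and ligation bias of the library kit was not corrected.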

Additional observations from a re-analysis of the deposited data

Results flagged for a closer look

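Dixon's test for a single outlying library was run on 77 sets (4 members and 3 ratios in 11 groups of 4 or 5), where chance marks about 1 in 20, and it marked 2 sets. Both are serum 3 of the PTH-treated WT rats. Rno-miR-221-3p was at 5195 CPM there and at 1772 to 2081 CPM in the other 4 sera of the group. The log2 ratio of rno-miR-126a-3p to rno-miR-126a-5p was −0.38 there and −1.34 to −1.12 in the others. No interaction of genotype and treatment passed FDR < 0.2 for a member.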

How the results depend on the processing

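The number of members past FDR < 0.2 stayed at 0 under every alternative run in the 3 interactions and in all comparisons within a tissue other than those named here, whose causes of change were not tested. In ZDF sera under anti-sclerostin against placebo, 1 member passed, and 0 passed with total miRNA reads without TMM, all library reads or extraction controls as library size, the hemolysis covariate or FDR < 0.05, while 2 passed (rno-miR-126a-5p added) with DESeq2 or with all miRNAs of at least 1 read and independent filtering, and 0 to 2 with 1 library left out. Against insulin, 1 member passed, and 0 passed under the same 5 alternatives and without a filter, 2 with DESeq2, and 0 to 2 with 1 library left out. In ZDF against WT placebo sera, all library reads gave 4 (106 of 164 miRNAs called) and extraction controls 1 (37 of 164 called). Extraction controls gave 2 in PTH against placebo in ZDF (rno-miR-221-3p and rno-miR-222-3p, with 88 of 154 miRNAs called). Total miRNA reads gave 1 in insulin against placebo in ZDF (rno-miR-126a-3p, with 59 of 151 miRNAs called), and 0 to 1 passed there with 1 library left out. Between bone and serum, 3 members passed in WT placebo rats (4 with all library reads, 2 at FDR < 0.05 and with independent filtering of all miRNAs of at least 1 read, 1 without a filter, 2 to 3 with 1 library left out), 2 in ZDF placebo (4 with all library reads), 2 in WT PTH (3, with rno-miR-126a-5p added, under RLE, without a filter, with independent filtering of all miRNAs of at least 1 read and with legacy = FALSE, 1 at FDR < 0.05, 1 without the 2 shallow bones, 1 to 3 with 1 library left out) and 1 in ZDF PTH (4 with all library reads, 2 with DESeq2, 1 to 2 with 1 library left out). All library reads turned these log2 fold changes from lower to higher in bone: rno-miR-126a-5p to 1.86 in WT placebo, 3.08 in ZDF placebo and 1.24 in WT PTH, rno-miR-221-3p to 1.96 in WT placebo, 2.94 in ZDF placebo, 0.92 in WT PTH and 2.57 in ZDF PTH, and rno-miR-222-3p to 1.88 in WT PTH. Bone libraries hold more miRNA reads per library read, which this setting keeps. No log2 ratio difference moved by more than 1 SD with a pseudocount of 1 or 0.1, and 3 of those in bone did without the 2 shallow bones. Over all miRNAs, calls under anti-sclerostin against placebo in ZDF were 2, with 13 by DESeq2 and 24 with all miRNAs of at least 1 read and independent filtering. The last setting is the one that gave calls in most earlier simulations without any change. No paired analysis was possible because the columns carry no number that links rats across groups. The median of 19 reads of rno-miR-222-3p in serum limits what can be seen of it.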
